A study of Mus musculus with 27 samples.

Results

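Intratumoral macrophages were compared with intratumoral neutrophils in mouse mammary tumours treated with cisplatin and an antibody against the CSF-1 receptor, called the combination here. The comparison took the 2 macrophage and 4 neutrophil libraries that the labels give this treatment, 6 of the 27 libraries of the series, and all 9996 genes of the deposited table, of which 8794 reached the minimum level for a test. All libraries of the series came from the K14cre;Cdh1F/F;Trp53F/F model, in which E-cadherin and p53 are lost where a keratin 14 promoter drives Cre, that is, in epithelium and not in the myeloid cells sequenced. Mice given cisplatin, the combination mice and the mice on cisplatin with control antibody alike, were killed 1 day after the second cisplatin dose. Control mice received the control antibody without cisplatin and were killed at a tumour size of 100 mm2, so a comparison with controls also compares these endpoints. Macrophages gave 4 cisplatin and 4 control libraries and neutrophils gave 3 and 4. Mice given anti-CSF-1R without cisplatin (2 macrophage and 4 neutrophil libraries) were also killed at 100 mm2. Their libraries entered the tests only through the shared estimate of spread and the restoration of lost decimal points, which used all libraries. Cells were sorted by flow cytometry, and 10 ng of RNA was amplified per library. The markers of the sort, and whether libraries came from separate mice, are not given in the sources used here, so a p-value here speaks only of how far these libraries vary, and that variation may be technical.

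Macrophages and neutrophils both descend from bone marrow myeloid progenitors. Tissue macrophages depend on CSF-1 receptor signalling, have a large lysosomal compartment, and clear dead cells and lipid through C1q, scavenger receptors and the cholesterol-export machinery. Neutrophils depend on G-CSF, live for a short time, carry preformed granule proteins and large stores of the calgranulins S100A8 and S100A9, and find inflamed tissue through CXCR1, CXCR2 and receptors for formyl peptides and complement fragments. The CSF-1 receptor is the target of the antibody in these mice.

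Levels below are normalised read counts as the authors made them, with lost decimal points restored, given in the order of macrophage libraries 1 and 2 and neutrophil libraries 1 to 4. Values whose decimal place could not be restored with a probability of at least 0.95 were left out (2802 of 59976 values of these 6 libraries), and the libraries that kept a value are then named. Differences are macrophages minus neutrophils on the log2(value + 1) scale with the SE of a limma fit over 8 groups, and adjusted p-values are Benjamini-Hochberg values over all genes tested, with a threshold of 0.05. Fold values are ratios of group means. The restored reads came to between 1015292 and 3598728 per library. Across genes the 2 macrophage libraries correlated at 0.970 and pairs of neutrophil libraries at 0.935 to 0.948, and the first principal component, with 75.2% of the variance, separated the cell types. Neutrophil library 2 stood apart on the second component (-37.3, with library 3 at 35.6). The summed normalised value was 1347065 and 1522661 in macrophages and 2110193, 3500319, 2156016 and 2251667 in neutrophils, so the scale on which libraries are compared bears on every count below. In bulk libraries, fewer cells of a type and less RNA per cell cannot be told apart.

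Most markers of the sorted populations followed their labels, and Csf1r was among those that did not. Csf1r, the receptor that the antibody targets, read 1126 and 1180 in macrophages and 962, 606, 1248 and 945 in neutrophils. The groups overlapped, since neutrophil library 3 lay above both macrophage libraries, and the difference was 0.34 ± 0.29 SE (95% interval -0.25 to 0.93, adjusted p = 0.339). It passed on other scales, at 1.20 after quantile normalisation and 1.12 in limma-voom on restored reads scaled to the library total (adjusted p = 0.00372 and 0.00844). Adgre1, which encodes F4/80 (chromosome 17, 57358691 to 57483527), read 486 and 629 in macrophages and 114, 83.3 and 203 in libraries 1, 3 and 4 of the neutrophils. Both macrophage libraries were above every restored neutrophil value (2.14 ± 0.39 SE, adjusted p = 0.000105). C1qa, a chain of the complement initiator C1q, read 257 and 692 in macrophages, and of the neutrophils only library 1 kept a value, 45.7 (3.18 ± 0.64 SE, adjusted p = 0.00034, with the neutrophil spread taken from the other groups).

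Neutrophil markers separated the groups by more. S100a8 (chromosome 3, 90668978 to 90670035) encodes a calcium-binding subunit of calprotectin, and read 349 and 317 in macrophages and 7004, 21187, 10342 and 12558 in neutrophils. Every neutrophil library was at least an order of magnitude above both macrophage libraries (-5.14 ± 0.54 SE, adjusted p = 2.03e-07). Csf3r, the G-CSF receptor (chromosome 4, 126024550 to 126044440), read 292 and 399 against 7304, 12863, 9702 and 8349, without overlap (-4.77 ± 0.37 SE, adjusted p = 8.13e-10). Cxcr2, the receptor for CXCL1 and CXCL2, read 82.4 in macrophage library 2, the one that kept a value, and 6487, 12395, 7337 and 5834 in neutrophils (-6.52 ± 0.50 SE, adjusted p = 1.62e-08). Its relative Cxcr1 was listed at 1, the lowest value of the table, in both macrophage libraries and at 33.2, 141, 62.1 and 43.2 in neutrophils.

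**Figure D1:**
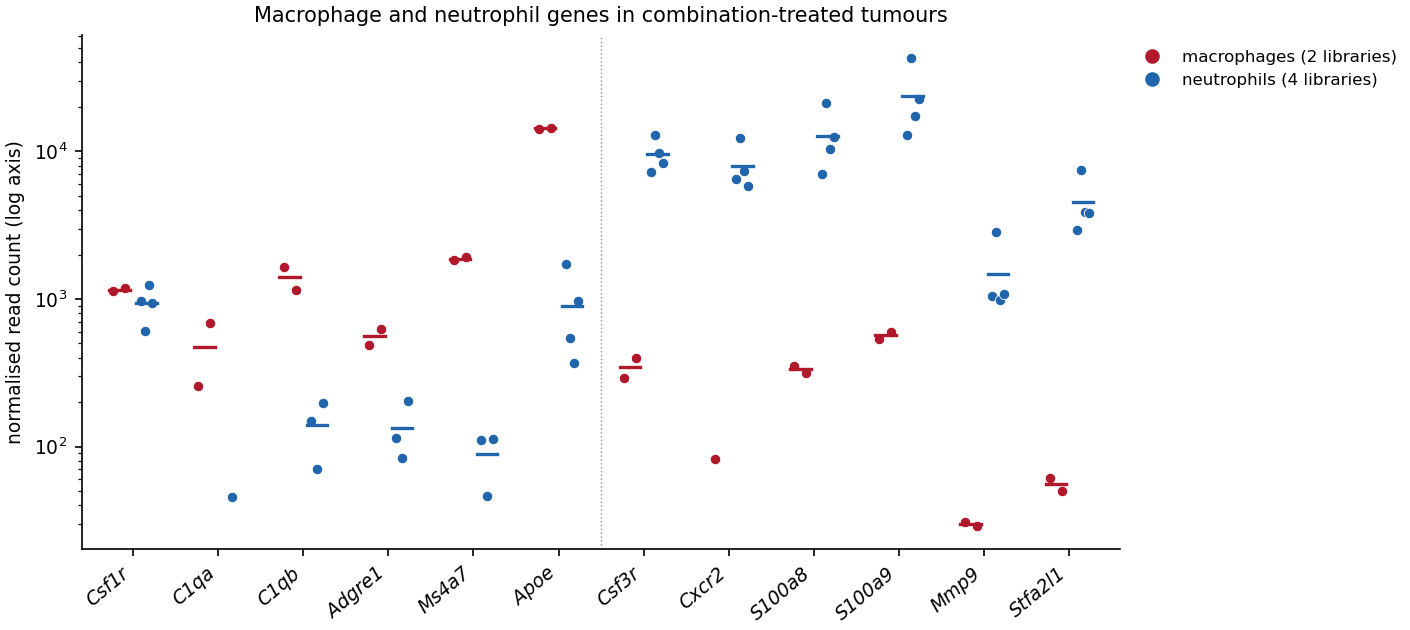
Normalised read counts (log axis) of 6 genes tied to macrophages, left of the dotted line, and 6 tied to neutrophils, right of it; each point is 1 combination library, bars are group means, and values left out are not drawn. Csf1r overlaps between the cell types, and the other 11 genes do not, which was a condition for choosing C1qb, Ms4a7, Apoe and Stfa2l1.

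Over the whole marker lists, 48.7% of tested genes being called in either direction, 22.7% higher and 25.9% lower in macrophages, 20 of 26 macrophage markers were higher in macrophages, 2 were lower and 4 did not pass (median difference 2.11, against 0.06 over all tested genes). The 2 that were lower are Cd14, the lipopolysaccharide co-receptor, and Itgam, the CD11b integrin chain, which neutrophils also carry. Cd14 read 2282 and 4911 in macrophages and 10989, 44243, 16393 and 16417 in neutrophils (-2.51 ± 0.55 SE, adjusted p = 0.000675). Itgam read 1584 and 1356 against 5612, 10473, 5839 and 4832 (-2.12 ± 0.40 SE, adjusted p = 0.000139) and missed the threshold once values were quantile normalised (adjusted p = 0.0707). Csf1r, Cx3cr1, Tgfbr1 and Sirpa did not pass. All 28 tested neutrophil markers were lower in macrophages (median -4.94). Their summed level over the 20 members restored in all 6 libraries was 2626 and 3093 in macrophages and 50106 to 132607 in neutrophils, so these transcripts were present at a low level in macrophage libraries, and their part in the results below was not tested. When decimal places were restored without knowledge of the groups, 16 neutrophil markers could be tested and 15 were lower.

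Markers of other cell types were present in some libraries. Of 5 tested eosinophil markers 3 were lower in macrophages, among them Siglecf, an eosinophil lectin that tumour neutrophils can also carry, at 10.9 and 22.7 in macrophages and 131, 118, 710.5 and 319 in neutrophils, with the highest value in library 3 (-3.87 ± 0.72 SE, adjusted p = 0.00013). Kit, the stem cell factor receptor of mast cells, also peaked in neutrophil library 3, with 39.5, 32.9, 186 and 59 in libraries 1 to 4. The rest of its list did not follow. The 7 listed mast cell and basophil genes restored in all 6 libraries summed to 7.87 and 7.84 in macrophages. In neutrophils they summed to 7, 7, 7 and 9.12, at or near the lowest value of 1 for each gene. B cell genes were seen in neutrophil library 1, with Ms4a1 at 39.5 and Cd79a at 37.4 against values of 1 to 1.12 in the other restored libraries, while neither was restored in neutrophil library 4. The 2 listed B cell genes restored in all 6 libraries summed to 6.99 and 8.82 in macrophages and 29.1, 2, 2.63 and 2 in neutrophils. Neutrophil library 1 was also the highest for the epithelial and milk genes Krt19 (39.5) and Csn3 (64.4). Among monocyte markers 1 of 12 was higher in macrophages, 5 were lower and 6 did not pass. Ly6c2, the antigen of inflammatory monocytes, read 159.5 and 637 in macrophages and 1141, 116 and 519.6 in libraries 2, 3 and 4 of the neutrophils, and its groups overlapped (adjusted p = 0.718). Of 5 tested dendritic cell markers 1, Irf8, was higher in macrophages, 2 were lower and 2 did not pass. The lower Clec9a, a marker of cross-presenting dendritic cells, read 1.87 and 3.55 in macrophages and 108, 50.4, 70.2 and 44.6 in neutrophils (-4.18 ± 0.62 SE, adjusted p = 1.54e-05). The 3 listed dendritic cell genes restored in all 6 libraries overlapped in sum, at 62.1 and 100.9 in macrophages and 147.6, 63.9, 101.3 and 109.1 in neutrophils. The part of these other cells in the differences was not tested.

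In all, 4279 of 8794 genes differed (48.7%), 1998 higher (22.7%) and 2281 lower (25.9%) in macrophages, and 4910 (55.8%) had an unadjusted p under 0.05. These shares are the background for each count of a gene list below. Both macrophage libraries lay above every restored neutrophil value in 2788 genes (31.7%) and below in 2842 (32.3%), which is the background for each statement below that groups do not overlap. Genes named for the largest differences were chosen among those without overlap, so their lack of overlap was fixed by that choice. Neutrophil-side differences were larger: 933 genes (10.6%) were lower by at least 4-fold and 443 (5.04%) were higher by at least 4-fold. The split depends on scale. In limma-voom with reads scaled to the library total, called the library-total scale, the median difference moved from 0.06 to 0.86, and of 5479 genes called 4309 were higher and 1170 lower; with the authors' size factors the same method gave 2122 and 2320. For some gene groups the count on the library-total scale is therefore given beside the main one. Where it is not given, the count of the group may depend on the scale too. Leaving out either macrophage library lowered the number called to 2681 (without library 1) or 2669 (without library 2).

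**Figure D2:**
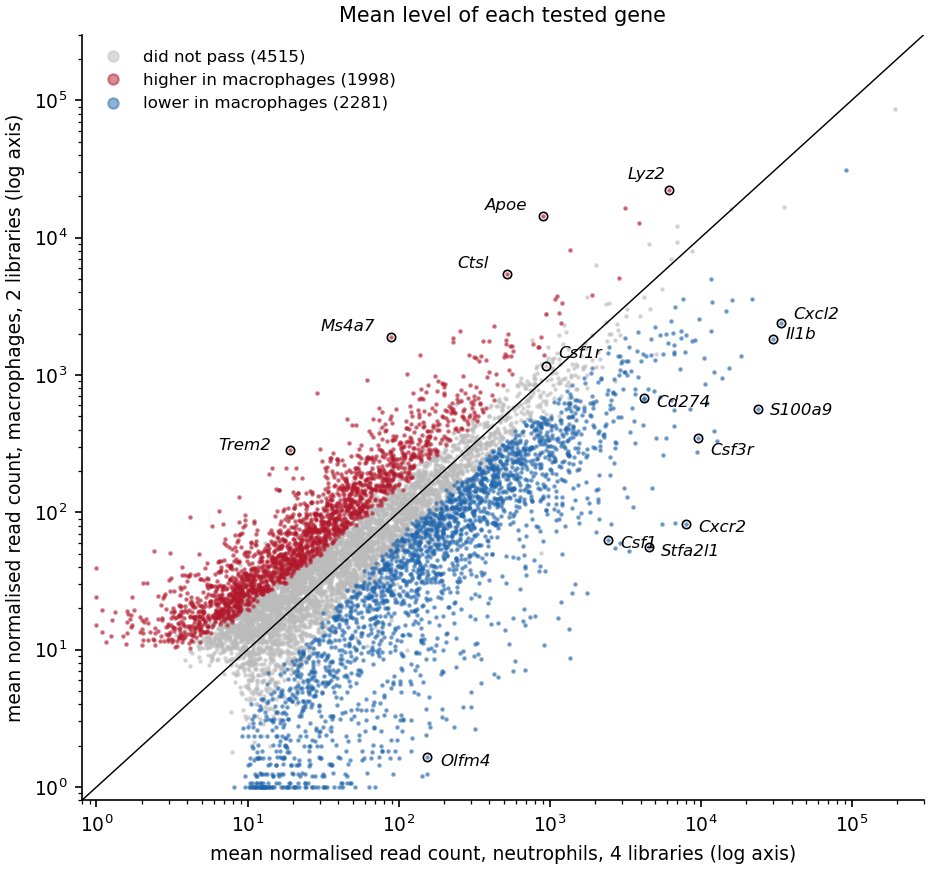
Mean normalised read count of each tested gene in the 4 neutrophil libraries (horizontal, log axis) and the 2 macrophage libraries (vertical, log axis), with the line of equal levels; colours give the 1998 genes higher and 2281 lower in macrophages, and 4515 genes in grey did not pass. Csf1r lies near the line of equal levels, Trem2 and Ms4a7 above it and Olfm4 and Cxcr2 far below it.

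Genes far apart on the neutrophil side had diverse products. Olfm4, the specific granule protein olfactomedin 4, read 1.87 and 1.42 in macrophages and 108, 120.1, 216 and 178 in neutrophils (-5.83 ± 0.40 SE, adjusted p = 1.62e-10). Lcn2, the iron-siderophore scavenger lipocalin 2, read 8.98 and 19.2 against 811, 2010, 1347 and 1201 (-6.49 ± 0.86 SE, adjusted p = 4.24e-06). G0s2, an inhibitor of triglyceride breakdown, read 13.8 and 3.55 in macrophages and 2775, 482 and 846 in libraries 2, 3 and 4 of the neutrophils (-6.99 ± 0.64 SE, adjusted p = 6.01e-08). None of these genes overlapped between the cell types, which the rule that chose them required. Hdc, which makes histamine, read 61 and 103 in macrophages and 3519, 9081, 4577 and 5052 in neutrophils, 67.8-fold higher in neutrophils by the means (adjusted p = 1.3e-08). Steap4, a metalloreductase, read 31.8 and 19.9 against 1270, 1952, 2345 and 1488 (68.2-fold, adjusted p = 1.46e-07), and the glucose transporter Slc2a3 averaged 17.4 ± 2.45 (SD, n = 2) in macrophages and 796 ± 402 (SD, n = 4) in neutrophils (adjusted p = 2.9e-08). Both lay far above the macrophage level in every neutrophil library.

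Among granule genes 13 of 20 tested were lower in macrophages, 4 were higher and 3 did not pass (median -3.48). The gelatinase Mmp9 read 31.1 and 29.1 in macrophages and 1043, 2822, 991 and 1074 in neutrophils (-5.42 ± 0.41 SE, adjusted p = 2.43e-09), and the collagenase Mmp8 read 39.7 and 41.2 against 353, 1607, 394 and 415 (-3.74 ± 0.84 SE, adjusted p = 0.000951). In both, library 2 was the highest neutrophil library. Pglyrp1, a peptidoglycan-binding granule protein, read 4.12 and 3.55 in macrophages and 233, 374 and 302 in libraries 1, 2 and 3 of the neutrophils (-5.95 ± 0.59 SE, adjusted p = 3.57e-08). Members of the list higher in macrophages included lysosomal proteins that both cell types make, such as Lyz2, lysozyme, at 21760 and 22958 in macrophages and 7701, 8690, 1934 and 6443 in neutrophils (2.06 ± 0.50 SE, adjusted p = 0.00162), and the tetraspanin Cd63 at 481 and 322 against 108, 62, 137 and 161 (1.83 ± 0.31 SE, adjusted p = 4.09e-05). Restored without knowledge of the groups, 11 granule genes could be tested and 3 were lower and 4 higher in macrophages.

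Calgranulins and stefins, small calcium-binding proteins and cysteine protease inhibitors of the neutrophil cytosol, gave 9 lower, 2 higher and 4 not passing of 15 (median -3.26). S100a9, the partner of S100a8 (chromosome 3, 90692632 to 90695721), read 533 and 602 in macrophages and 12872, 42817, 17270 and 22585 in neutrophils (-5.25 ± 0.53 SE, adjusted p = 1.75e-07). S100a11 read 161 and 214 against 1440, 4232, 854 and 1967 (-3.26 ± 0.45 SE, adjusted p = 3.44e-06). Stfa2l1, a stefin A copy, read 61.4 and 49.7 against 2926, 7499, 3908 and 3795, 81.6-fold higher in neutrophils (adjusted p = 8.26e-08). Stefin A genes and Mrgpra2b (7.86 and 6.39 against 459, 1261, 444 and 594, adjusted p = 8.92e-08) have near-identical copies among which reads may have been split, so the member that a value belongs to is uncertain. Cst3, cystatin C, was higher in macrophages, at 2280 and 2478 against 1287, 1044, 1039 and 1368 (1.02 ± 0.30 SE, adjusted p = 0.00769), but not when macrophage library 2 was left out (adjusted p = 0.0681).

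The promoters of a pair of genes from each side are printed because they frame the contrast and because Spi1, the ETS factor PU.1 that governs both lineages, itself differed. Spi1 read 112 and 187 in macrophages and 542, 705, 536 and 519.6 in neutrophils, without overlap (-1.97 ± 0.27 SE, adjusted p = 1.92e-06). The sequences are the 250 bases before the RefSeq start in assembly GRCm38.p6, written 5′ to 3′ on the gene's strand. Capitals mark GAGGAA, the purine-rich core of PU.1 sites, or its other strand TTCCTC.
S100a9, chr3:90695722-90695971, minus strand: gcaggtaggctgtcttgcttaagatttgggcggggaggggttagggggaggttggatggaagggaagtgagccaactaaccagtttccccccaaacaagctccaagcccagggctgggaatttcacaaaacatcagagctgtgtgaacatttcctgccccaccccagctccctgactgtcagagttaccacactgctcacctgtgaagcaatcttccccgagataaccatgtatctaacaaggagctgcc
Cxcr2, chr1:74153744-74153993, plus strand: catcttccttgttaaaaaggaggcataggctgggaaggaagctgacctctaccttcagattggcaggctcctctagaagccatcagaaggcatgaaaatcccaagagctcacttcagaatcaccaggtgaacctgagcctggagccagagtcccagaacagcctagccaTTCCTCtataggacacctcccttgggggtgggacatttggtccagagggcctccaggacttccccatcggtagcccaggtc
C1qb, chr4:136886201-136886450, minus strand: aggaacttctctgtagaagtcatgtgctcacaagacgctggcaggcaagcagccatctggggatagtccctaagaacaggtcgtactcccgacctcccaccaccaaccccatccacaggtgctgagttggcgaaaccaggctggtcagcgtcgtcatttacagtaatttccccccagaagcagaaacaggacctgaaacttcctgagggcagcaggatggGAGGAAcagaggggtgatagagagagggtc
Trem2, chr17:48346151-48346400, plus strand: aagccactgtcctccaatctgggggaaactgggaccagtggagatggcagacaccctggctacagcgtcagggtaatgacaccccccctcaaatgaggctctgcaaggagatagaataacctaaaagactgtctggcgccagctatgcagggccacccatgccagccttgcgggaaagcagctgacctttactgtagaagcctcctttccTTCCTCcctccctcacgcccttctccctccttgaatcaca
The 6 letters occurred 81 bases before the start of Cxcr2, 30 before C1qb and 40 before Trem2, and not in the S100a9 window. Searched on both strands, they occurred in 7639 of 32851 windows of this length (23.3%), in 66 of 267 windows of genes at least 4-fold higher in macrophages (24.7%) and in 179 of 576 windows of genes at least 4-fold lower (31.1%), counting genes with 1 window. A match is a description of the letters and was not tested for binding.

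Genes far apart on the macrophage side included lipid carriers and membrane proteins. Ms4a7, a tetraspan protein of tissue macrophages, read 1830 and 1925 in macrophages and 110.2, 46.5 and 113 in libraries 1, 2 and 4 of the neutrophils (4.48 ± 0.42 SE, adjusted p = 1.41e-08). Apoe, the lipoprotein that carries exported cholesterol (chromosome 7, 19696109 to 19699188), read 14200 and 14456 against 1735, 544, 366 and 966 (4.23 ± 0.61 SE, adjusted p = 6.01e-06). Trem2, a lipid-sensing receptor, read 302 and 271 against 27, 17.4, 8.17 and 23.3 (3.96 ± 0.44 SE, adjusted p = 1.62e-07), and Pparg, a lipid-activated nuclear receptor, read 33.3 and 27.7 against 1, 1.94, 1.63 and 4.12 (3.40 ± 0.56 SE, adjusted p = 4.12e-05). The macrophage and neutrophil values of these genes did not overlap, which the rule that chose Ms4a7, Apoe and Trem2 required. Cd72, a C-type lectin inhibitory receptor, read 220.5 and 158 against 31.2, 1, 1 and 22, with neutrophil libraries 2 and 3 at the lowest value of the table (adjusted p = 0.000442), and Itga9, an integrin chain, showed the same layout at 272 and 149 against 37.4, 1, 1 and 18.5 (adjusted p = 3.67e-05). Among all genes called higher in macrophages with 4 neutrophil values, neutrophil library 1 was the highest of its group in 38.5% and library 4 in 36.2%, against 21.9% and 18.7% over all tested genes with 4 neutrophil values.

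Of 17 tested complement genes 6 were higher and 6 lower in macrophages (9 higher and 3 lower on the library-total scale). C1qb read 1659 and 1156 in macrophages and 149.6, 70.2 and 198 in libraries 1, 3 and 4 of the neutrophils (3.43 ± 0.41 SE, adjusted p = 4.3e-07). C1qc read 1216 and 810.1 against 106, 155, 57.2 and 139 (3.20 ± 0.37 SE, adjusted p = 1.65e-07), and C3ar1, the C3a receptor, read 2209 and 2338 against 281 and 581 in libraries 2 and 4 (2.49 ± 0.53 SE, adjusted p = 0.000535). These were the C1q chains and a receptor on the macrophage side. On the neutrophil side stood the C5a receptors, with C5ar1 at 619 and 966 in macrophages and 3012, 7764, 3216 and 3834 in neutrophils (-2.41 ± 0.41 SE, adjusted p = 3.6e-05) and C5ar2 at 61.4 and 37 against 206, 205, 266 and 158 (-2.08 ± 0.28 SE, adjusted p = 1.71e-06). Without neutrophil library 2, 3 complement genes were lower in place of 6.

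Lysosomal genes were higher in macrophages in 25 of 35 tested, lower in 4 and did not pass in 6 (median 1.65). The cysteine protease Ctsl read 6112 and 4787 in macrophages and 960.2, 490, 219 and 424 in neutrophils (3.56 ± 0.49 SE, adjusted p = 4.97e-06), and legumain, Lgmn, read 2153 and 2019 against 457, 167, 94.7 and 299 (3.27 ± 0.50 SE, adjusted p = 1e-05). Psap, the precursor of the sphingolipid-degrading saposins, read 8694 and 7462 against 1756, 1114, 913 and 1646 (2.62 ± 0.37 SE, adjusted p = 4.35e-06). Each of these was several-fold higher in both macrophage libraries than in any neutrophil library. Lamp1, a main protein of the lysosomal membrane, read 3246 and 3924 against 1330, 1059, 831 and 1146 (1.73 ± 0.24 SE, adjusted p = 2.29e-06).

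Lipid handling genes gave 14 higher, 1 lower and 9 not passing of 24 (median 1.31), and 8 were higher when either macrophage library was left out. Besides Apoe, Trem2 and Pparg, the fatty acid chaperone Fabp5 read 740 in macrophage library 2, the one that kept a value, and 148, 149, 81.7 and 122 in neutrophils (2.60 ± 0.38 SE, adjusted p = 6.38e-06, and 0.17 with places restored without the groups). Nr1h3, the oxysterol receptor LXR-alpha, read 59.5 and 56.1 against 6.24, 5.81, 4.90 and 11.7 (2.92 ± 0.59 SE, adjusted p = 0.000269). The member lower in macrophages was Olr1, the oxidised-LDL receptor LOX-1, at 86.8 and 248 in macrophages and 854, 3153, 1483 and 1530 in neutrophils (-3.41 ± 0.57 SE, adjusted p = 4.21e-05).

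Receptors for dead cells, antibodies and scavenged ligands gave 10 higher and 12 lower of 30. Over all tested genes 22.7% were higher and 25.9% lower, so members on both sides are not particular to this list. The balance turned on the library-total scale (14 higher and 10 lower). Mertk, the receptor tyrosine kinase for apoptotic cells, read 472 and 386 in macrophages and 97.7, 25.2, 16.3 and 70.7 in neutrophils (3.34 ± 0.46 SE, adjusted p = 2.41e-06), and Fcgrt, the neonatal Fc receptor, read 85.7 and 81.7 against 8.31, 11.6, 6.53 and 17.9 (2.90 ± 0.47 SE, adjusted p = 2.82e-05). The amplifying receptor Trem1 read 304 and 392 against 3677, 9445, 3157 and 3972 (-3.72 ± 0.48 SE, adjusted p = 9.73e-07). The first pair was high in macrophages and Trem1 in neutrophils, with no overlap in any of the 3 genes, which was a condition for choosing Mertk.

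**Figure D3:**
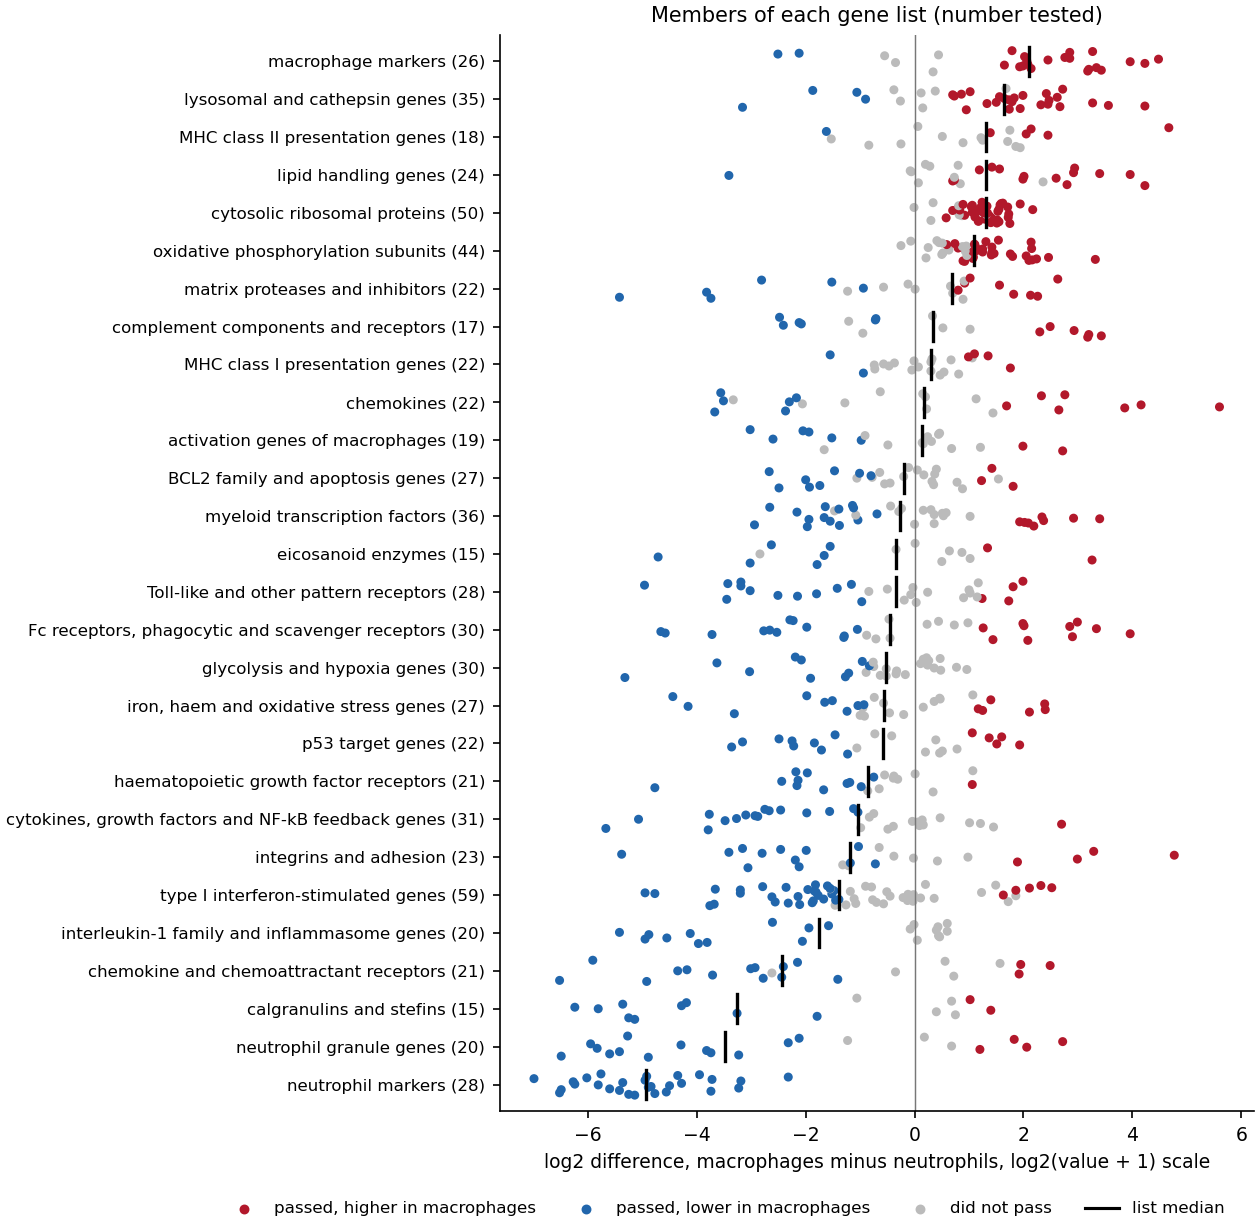
Difference between macrophages and neutrophils (log2 scale, horizontal) of each tested member of the gene lists with at least 15 tested members, the number in parentheses; red members were higher and blue lower in macrophages, grey ones did not pass, and black bars are list medians. Medians run from -4.94 for neutrophil markers to 2.11 for macrophage markers, and several lists hold members on both sides.

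Members of the chemokine list lay on both sides, as did all tested genes, of which 22.7% were higher and 25.9% lower in macrophages. Of 22 tested 7 were higher and 6 lower in macrophages (median 0.18); 4 and 3 were higher without macrophage library 1 and library 2. The monocyte attractants Ccl7 and Ccl12 read 912 and 209 in macrophage library 2, the one that kept a value. In neutrophils Ccl7 read 66.5, 60 and 59 in libraries 1, 2 and 4 (3.86 ± 0.84 SE, adjusted p = 0.00116) and Ccl12 read 43.6, 11.6, 1 and 15.8 (4.16 ± 0.94 SE, adjusted p = 0.00121). Ccl7 did not pass with the most probable place taken for every value (adjusted p = 0.108) or in limma-voom with the authors' size factors (adjusted p = 0.113). Cxcl16, a membrane-bound ligand of CXCR6, read 866 and 879.7 in macrophages and 287, 138, 84.9 and 262 in neutrophils (2.33 ± 0.44 SE, adjusted p = 0.000151), and Ccl5, a T cell attractant, read 115 and 386 against 33.2, 19.6 and 53.5 in libraries 1, 3 and 4 (2.65 ± 0.55 SE, adjusted p = 0.00115). Neutrophils had the higher level of their own attractant Cxcl2, at 1682 and 3061 in macrophages and 18292, 82432, 14237 and 20567 in neutrophils (-3.51 ± 0.72 SE, adjusted p = 0.000308). Ccl3, a ligand of CCR1, followed the same order at 452 and 797 against 4053, 27681, 3503 and 8654 (-3.67 ± 0.72 SE, adjusted p = 0.000259), and so did the interferon-induced Cxcl10 at 126 and 183 against 451, 947, 528 and 988 (-2.17 ± 0.41 SE, adjusted p = 0.000162). The chemokine list also holds Ccrl2, an atypical receptor that binds chemerin, which is 1 of its lower members, at 636 and 1474 against 7137, 20236, 11278 and 10468 (-3.56 ± 0.44 SE, adjusted p = 6.29e-07). Cxcl9, another interferon-gamma-induced ligand of CXCR3, read 249 and 978 against 139, 228 and 355 in libraries 1, 2 and 4. It overlapped and did not pass (adjusted p = 0.19), but on the library-total scale it was higher in macrophages (adjusted p = 0.0248).

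Interleukin-1 family and inflammasome genes gave 11 lower and 0 higher in macrophages of 20 tested (median -1.76; 5 higher and 11 lower on the library-total scale). Il1b, the precursor of secreted interleukin-1 beta, read 1407 and 2241 in macrophages and 17099, 67729, 16451 and 20066 in neutrophils, highest in library 2 (-3.81 ± 0.72 SE, adjusted p = 0.000125). The inflammasome sensor Nlrp3 read 255 and 436 against 5084, 7444, 6667 and 4516 (-4.12 ± 0.40 SE, adjusted p = 2.09e-08). Il1rn, the receptor antagonist, stood on the same side at 2648 and 4390 against 7798, 29536, 12509 and 14272 (-2.06 ± 0.48 SE, adjusted p = 0.00104). Il1f9, the epithelial and myeloid cytokine IL-36 gamma, which the list does not hold, read 49.8 and 55.4 against 2455, 5868, 2563 and 2464 (-5.85 ± 0.41 SE, adjusted p = 2.43e-09), and Il1rap, the shared accessory receptor chain, read 45.7 and 54 against 1212, 1615, 1124 and 906 (-4.55 ± 0.34 SE, adjusted p = 3.29e-10). Ligand, antagonist and receptor chain were thus all at higher levels in each neutrophil library than in either macrophage library. Casp1, the protease that cleaves the precursor, read 122 and 115 against 110.2, 192, 73.5 and 161, and the adaptor Pycard read 57.3 and 77.5 against 48.4, 62.1 and 42.6 in libraries 2, 3 and 4; both overlapped and neither passed (adjusted p = 0.896 and 0.528), though Pycard was higher in macrophages on the library-total scale (adjusted p = 0.0258).

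Other cytokines and feedback genes of NF-kB gave 16 lower and 1 higher of 31 (median -1.04). Csf1, the ligand of the targeted receptor (chromosome 3, 107741048 to 107760469), read 65.5 and 61.1 in macrophages and 1166, 4429, 1882 and 2256 in neutrophils, 38.4-fold higher in neutrophils by the means (-5.07 ± 0.42 SE, adjusted p = 1.2e-08). Tnf read 139 and 155 against 2026, 2510, 1431 and 2400 (-3.79 ± 0.44 SE, adjusted p = 1.95e-07), and Il23a, the p19 chain of interleukin-23, read 5.62 and 4.26 against 268, 379.6, 309 and 257 (-5.67 ± 0.55 SE, adjusted p = 3.29e-08). In each of the 3 the lowest neutrophil library exceeded both macrophage libraries. The member higher in macrophages was Pdgfb, a growth factor for pericytes, at 19.8 and 19.9 against 2.08, 1, 1 and 7.55 (2.70 ± 0.56 SE, adjusted p = 0.000396). Tnfsf13, the B cell survival factor APRIL, is not on the list and was also higher in macrophages, at 153 and 144 against 37.4, 5.81, 6.53 and 12.4 (3.55 ± 0.89 SE, adjusted p = 0.00217), which did not pass with places restored without the groups (adjusted p = 0.233). Vegfa, the endothelial growth factor, read 695 and 986 against 617, 1187, 542 and 748, overlapped and did not pass (adjusted p = 0.734), although it was higher in macrophages after quantile normalisation (adjusted p = 0.00901) and on the library-total scale (adjusted p = 0.0117).

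**Figure D4:**
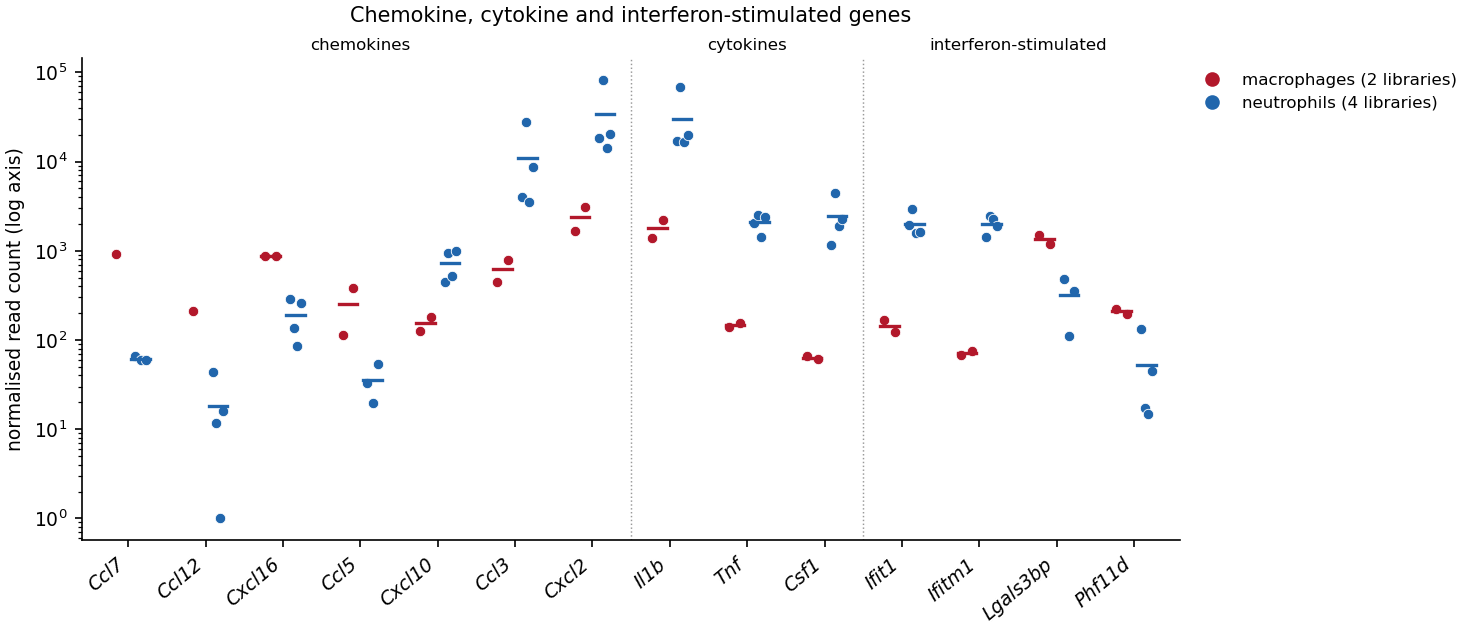
Normalised read counts (log axis) of 7 chemokines, 3 cytokines and 4 interferon-stimulated genes in the 2 macrophage and 4 neutrophil combination libraries; points are libraries, bars are group means, and values left out are not drawn. Ccl7, Ccl12, Cxcl16, Ccl5, Lgals3bp and Phf11d are higher in macrophages and the other 8 genes in neutrophils, with no overlap.

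Growth factor receptors other than Csf1r were mostly lower in macrophages, 11 of 21, with 1 higher (4 higher and 7 lower on the library-total scale). The shared beta chain Csf2rb of the GM-CSF, IL-3 and IL-5 receptors read 1880 and 2195 in macrophages and 5410, 8527, 6610 and 5814 in neutrophils (-1.67 ± 0.43 SE, adjusted p = 0.00252), and lost the call once values were quantile normalised (adjusted p = 0.575). Il6ra read 143 and 174 against 736, 792, 701 and 619 (-2.16 ± 0.25 SE, adjusted p = 2.01e-07), while Il6st, the signalling chain gp130, was the member higher in macrophages at 85 and 127 against 38.7, 47.4 and 65.9 in libraries 2, 3 and 4 (1.06 ± 0.37 SE, adjusted p = 0.0206). The 2 chains of the interleukin-6 receptor thus lay on opposite sides. For Il6st the call was lost without macrophage library 2 (adjusted p = 0.209), without neutrophil library 2 (adjusted p = 0.0762), in both restorations that ignore the groups or keep uncertain places (adjusted p = 0.0898 and 0.0849), and in limma-voom with the authors' size factors (adjusted p = 0.0643). Tnfrsf1b, a receptor for TNF, read 735 and 856 against 2667, 4445, 4560 and 3065 (-2.18 ± 0.30 SE, adjusted p = 2.31e-06).

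Of 21 chemoattractant receptors 13 were lower and 3 higher in macrophages (median -2.44). The platelet-activating factor receptor Ptafr read 123 and 213 in macrophages and 1027, 1085, 1811 and 1168 in neutrophils (-2.93 ± 0.33 SE, adjusted p = 1.27e-07). Cmklr1, the signalling chemerin receptor, was higher in macrophages at 232 and 229 against 133, 34.9, 40.8 and 63.8 (1.95 ± 0.42 SE, adjusted p = 0.000581). It thus lay on the side opposite to Ccrl2. Ccr2, the receptor that brings monocytes into tissue, kept 1 macrophage value, 465 in library 2, within the neutrophil range of 196 to 490.5, and did not pass (adjusted p = 0.361).

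Adhesion genes gave 12 lower and 4 higher of 23 (median -1.18). Selplg, the selectin ligand PSGL-1, read 165 and 180.5 in macrophages and 954, 1619, 1258 and 1091 in neutrophils (-2.80 ± 0.29 SE, adjusted p = 5.07e-08). Itgb5, a vitronectin receptor chain, was higher in macrophages, at 302 and 193 against 66.5, 17.4, 16.3 and 39.8 (2.99 ± 0.51 SE, adjusted p = 4.68e-05). The groups did not overlap in either gene, a leukocyte rolling ligand on the neutrophil side and a matrix receptor on the macrophage side.

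Pattern recognition receptors were lower in macrophages in 12 and higher in 4 of 28, a majority that turned on the library-total scale (11 higher and 9 lower). Tlr6, which pairs with TLR2 at the cell surface, read 44.9 and 50.5 in macrophages and 409, 984, 434 and 457 in neutrophils (-3.45 ± 0.31 SE, adjusted p = 8.79e-09), and Nod2, the cytosolic muramyl dipeptide sensor, read 38.5 and 32.7 against 259.8, 217, 398 and 333 (-3.02 ± 0.40 SE, adjusted p = 1.72e-06). Clec4e, the mycobacterial-glycolipid receptor Mincle, read 230.2 and 551 against 7247, 20995, 12434 and 8100 (-4.96 ± 0.50 SE, adjusted p = 3.5e-08). The endosomal RNA sensors Tlr7 and Tlr3 were on the other side. Tlr7 read 216 and 211 against 123, 73.6, 68.6 and 105 (1.24 ± 0.45 SE, adjusted p = 0.0261), and Tlr3 read 132 and 76 against 49.9, 15.5 and 33 in libraries 1, 2 and 4 (1.73 ± 0.49 SE, adjusted p = 0.0059). Tlr6, Nod2 and Clec4e were thus higher in neutrophils, and Tlr7 and Tlr3 in macrophages. The list as a whole was not split by compartment. Its members Tlr1, Tlr5, Tlr8, Tlr9 and Nod1 did not pass, and the mannose receptor Mrc1 was higher in macrophages. Tlr7 did not pass without any of 4 libraries, macrophage 1 or 2 or neutrophil 2 or 3 (adjusted p = 0.117, 0.108, 0.0569 and 0.0593), and Tlr3 did not pass without macrophage library 1 (adjusted p = 0.102).

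Type I interferon-stimulated genes were lower in macrophages in 28 of 59 tested, higher in 5, and 26 did not pass (median -1.39). This count moved with the processing: 15 were lower and 10 higher on the library-total scale, 14 and 8 after quantile normalisation, and 15, 20 and 19 were lower without macrophage library 1, macrophage library 2 and neutrophil library 2. Ifit1, an antiviral RNA-binding protein, read 167 and 124 in macrophages and 1962, 2940, 1563 and 1614 in neutrophils (-3.76 ± 0.43 SE, adjusted p = 3.44e-06). Ifitm1, a membrane protein that blocks viral fusion, read 68.1 and 75.3 against 1438, 2448, 2293 and 1881 (-4.77 ± 0.42 SE, adjusted p = 1.81e-08), and its neighbour Ifitm6 read 9.36 and 9.24 against 314, 552, 214 and 269.8 (-4.95 ± 0.54 SE, adjusted p = 1.19e-07); reads may be shared within this family. Both groups were well apart for these genes. In macrophages the glycoprotein gene Lgals3bp was higher, at 1512 and 1178 against 484, 111 and 352 in libraries 1, 3 and 4 (2.32 ± 0.66 SE, adjusted p = 0.00657), and so was Phf11d, at 225 and 193 against 133, 17.4, 14.7 and 45.3 (2.52 ± 0.67 SE, adjusted p = 0.00526). Lgals3bp did not pass without macrophage library 1 (adjusted p = 0.0606), nor Phf11d with places restored without the groups (adjusted p = 0.113) or at other settings of the restoration (adjusted p = 0.0645 and 0.0866). Irf7, the amplifying transcription factor of the pathway, read 347 and 599 against 549, 633, 386 and 459.9, overlapped and did not pass (adjusted p = 0.854).

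Most antigen presentation genes did not pass. Of 22 class I genes 4 were higher and 2 lower (12 higher and 0 lower on the library-total scale, median 0.30), and B2m, the class I light chain, read 14997 and 17484 in macrophages and 12776, 20343, 11912 and 18270 in neutrophils, overlapping (0.07 ± 0.38 SE, adjusted p = 0.893). Calr, a chaperone of class I loading, was higher at 571 and 729.8 against 306, 180.1, 240.1 and 310.3 (1.35 ± 0.25 SE, adjusted p = 0.000127), and Nlrc5, the class I transactivator, was lower at 121 and 109 against 272, 739.8, 157 and 417 (-1.55 ± 0.54 SE, adjusted p = 0.0211). B2m was higher in macrophages on the library-total scale (adjusted p = 0.0272), and Nlrc5 did not pass on that scale (adjusted p = 0.154), after quantile normalisation (adjusted p = 0.0819), or without macrophage library 1, macrophage library 2 or neutrophil library 2 (adjusted p = 0.0838, 0.114 and 0.0771). Of 18 class II genes 5 were higher and 1 lower (10 higher and 0 lower on the library-total scale, median 1.32). H2-Aa read 4023 and 8539 in macrophages and 3338, 1096, 461 and 3205 in neutrophils, and did not pass although its groups were apart (1.94 ± 0.86 SE, adjusted p = 0.0637). The invariant chain Cd74 read 6112 and 11833 against 7455, 2804, 1259 and 6712 and overlapped (adjusted p = 0.211). Both passed after quantile normalisation (adjusted p = 0.00491 and 0.0404) and on the library-total scale (adjusted p = 0.00921 and 0.0392), and H2-Aa also without neutrophil library 1 (adjusted p = 0.0353) or 4 (adjusted p = 0.0385) and with only these groups in the fit (adjusted p = 0.0403). Neutrophil libraries 1 and 4 carried the higher class II levels of their group, and the B cell genes named above were seen in library 1 and not restored in library 4. The 2 other B cell genes restored in all 6 libraries summed to 29.1 in library 1 and 2 in library 4. Among all genes called higher in macrophages with 4 neutrophil values, these libraries were also most often the highest (38.5% and 36.2%). The source of their class II levels was not tested. Histocompatibility genes are close relatives, and reads may have been shared among them. The class II list's lower member was Cd80, a T cell costimulator, at 92.8 and 93.8 against 249, 529, 168 and 314 (-1.62 ± 0.43 SE, adjusted p = 0.00347), a call lost on the library-total scale (adjusted p = 0.0679).

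Macrophage activation genes showed no common direction: of 19 tested 2 were higher and 6 lower (7 higher and 4 lower on the library-total scale). Arg1, arginase, read 973 and 982 in macrophages and 138, 75.1 and 312 in libraries 2, 3 and 4 of the neutrophils (2.72 ± 0.80 SE, adjusted p = 0.00802), and the mannose receptor Mrc1 read 1602 and 1040 against 324 in neutrophil library 4, the one that kept a value (1.99 ± 0.76 SE, adjusted p = 0.0341). Cd274, the inhibitory ligand PD-L1, was lower at 587 and 767 against 2683, 5946, 3810 and 4477, without overlap (-2.60 ± 0.43 SE, adjusted p = 2.54e-05). The Mrc1 call was lost without macrophage library 1 or 2 (adjusted p = 0.15 and 0.0509). Spp1, osteopontin, read 2672 and 1210 against 1586, 8585, 477 and 1089, with neutrophil library 2 above and library 3 below all others, and did not pass (adjusted p = 0.896).

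Transcription factors of myeloid cells gave 8 higher and 14 lower of 36, reversed in balance on the library-total scale (15 higher and 7 lower). Irf8, a factor of the monocyte and dendritic line, read 180.4 and 162 in macrophages and 72.7, 19.4 and 42.6 in libraries 1, 2 and 4 of the neutrophils (2.09 ± 0.54 SE, adjusted p = 0.00258). Cebpd, a C/EBP factor of granulocytes and acute-phase responses, read 27.7 and 24.9 against 206, 352, 176 and 147 (-2.94 ± 0.32 SE, adjusted p = 9.82e-08), and Ets2 read 1005 and 1191 against 5460, 12061, 5873 and 6011 (-2.66 ± 0.31 SE, adjusted p = 2.66e-07). Each gene's groups were apart, Irf8 high in macrophages and the other two in neutrophils.

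The NADPH oxidase makes superoxide in both cell types. Of 8 tested members of its list, which also holds the proton channel gene Hvcn1, 2 were higher in macrophages and 4 lower. The higher members were Cybb and Hvcn1. The catalytic membrane chain Cybb read 1406 and 1948 in macrophages and 1068, 666, 386 and 977 in neutrophils (1.20 ± 0.43 SE, adjusted p = 0.0244), and did not pass without macrophage library 1 or 2 or neutrophil library 3 (adjusted p = 0.0529, 0.19 and 0.0839). The cytosolic organiser Ncf1 read 216 and 248 against 667, 1507, 1547 and 1139 (-2.31 ± 0.34 SE, adjusted p = 5.67e-06), and the GTPase Rac2 read 193 and 212 against 1039, 1803, 1769 and 1487 (-2.88 ± 0.30 SE, adjusted p = 5.07e-08). The catalytic chain was higher in macrophages and these cytosolic subunits in neutrophils. Genes of iron, haem and oxidative stress were 6 higher and 9 lower of 27, again turned on the library-total scale (11 higher and 4 lower). Slc7a11, the cystine importer, read 291 and 230.2 against 6343, 5221, 5739 and 5388 (-4.44 ± 0.53 SE, adjusted p = 3.57e-07), glutathione reductase, Gsr, read 91 and 110.1 against 1482, 2299, 2042 and 1540 (-4.16 ± 0.56 SE, adjusted p = 2.3e-06), and the peroxidase Prdx1 read 640.1 and 860.5 against 179, 85.2, 106 and 239.6 (2.39 ± 0.38 SE, adjusted p = 1.99e-05). Slc7a11 and Gsr were thus higher in neutrophils and Prdx1 in macrophages. The list did not divide that way as a whole. The related Prdx6 was lower in macrophages, and Prdx5, Gpx1, Gpx4, Gclm and Gclc did not pass.

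Oxidative phosphorylation subunits were higher in macrophages in 30 of 44 tested and lower in 0 (median 1.09; 41 higher and 0 lower on the library-total scale, and 18 higher without macrophage library 2). Ndufa9 of complex I read 100.3 and 91 in macrophages and 14.6, 5.81, 4.90 and 13 in neutrophils (3.32 ± 0.50 SE, adjusted p = 1.14e-05), and Cox5a of complex IV read 157 and 238 against 49.9, 27.1, 37.6 and 65.9 (2.15 ± 0.34 SE, adjusted p = 1.93e-05). Cytosolic ribosomal proteins followed, with 43 of 50 higher and 0 lower (median 1.30), and 27 higher without macrophage library 2. Rps20 read 319.7 and 369 against 102, 79.4, 52.3 and 148 (1.94 ± 0.37 SE, adjusted p = 0.000158). Reads of the 45S ribosomal RNA precursor Rn45s, which vary with the depletion of ribosomal RNA, took 3.49% and 8.32% of the summed value in macrophages and 5.99% to 9.97% in neutrophils.

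Glycolysis and hypoxia genes gave 10 lower and 0 higher of 30 (median -0.52), a direction that turned on the library-total scale (10 higher and 5 lower). Pfkfb4, a regulator of glycolytic flux, read 11.6 and 14.2 in macrophages and 116, 165, 93.1 and 87.9 in neutrophils (-3.03 ± 0.36 SE, adjusted p = 2.53e-07), and Egln3, an oxygen-sensing hydroxylase, read 12.3 and 19.2 against 108, 201, 464 and 163 (-3.63 ± 0.58 SE, adjusted p = 1.99e-05). Ldha, lactate dehydrogenase, did not pass at 787 and 818 against 497, 736, 779 and 739 (adjusted p = 0.581), but was higher in macrophages after quantile normalisation and on the library-total scale (adjusted p = 0.00392 and 0.00581). Thus a regulator of glycolysis and an oxygen sensor were higher in neutrophils, while the glycolytic enzyme named did not pass on the main scale.

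Eicosanoid genes were 2 higher and 6 lower of 15 (6 higher and 4 lower on the library-total scale). Alox5, 5-lipoxygenase, which starts leukotriene synthesis, read 9.36 and 12.8 in macrophages and 235, 438, 343 and 266 in neutrophils (-4.71 ± 0.47 SE, adjusted p = 2.87e-08), and its activating protein Alox5ap read 287 and 551 against 954, 1749, 1227 and 1247 (-1.66 ± 0.41 SE, adjusted p = 0.00159). Quantile normalisation ended the call of Alox5ap (adjusted p = 0.088), as did leaving out macrophage library 1 (adjusted p = 0.0764). Hpgds, which makes prostaglandin D2, read 239 and 114 against 43.6, 15.5, 8.17 and 12.4 (3.26 ± 0.59 SE, adjusted p = 7.94e-05). Alox5 and Alox5ap were thus higher in neutrophils and Hpgds in macrophages. Of the other members, Lta4h did not pass, and Ptgs1 and Ptger2 were lower in macrophages. The call of Ptgs1 was lost on the library-total scale (adjusted p = 0.0945). Matrix proteases and inhibitors were 8 higher and 6 lower of 22, with 4 and 3 higher without macrophage library 1 and library 2; Mmp14, the membrane-bound collagenase, read 318 and 383 against 226, 46.5, 65.3 and 134 (1.82 ± 0.51 SE, adjusted p = 0.00481), and did not pass without macrophage library 2 or with places restored without the groups (adjusted p = 0.0544 and 0.115).

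Apoptosis and p53 genes bear on cells exposed to a DNA-crosslinking drug. Of 27 apoptosis genes 3 were higher and 8 lower in macrophages, turned on the library-total scale (10 higher and 5 lower). Mcl1, the survival factor on which neutrophils depend, read 3134 and 3625 in macrophages and 9473, 18801, 10293 and 8842 in neutrophils (-1.74 ± 0.29 SE, adjusted p = 2.67e-05), and Bcl2l11, the killer protein BIM, read 728 and 839.9 against 2833, 4108, 3092 and 2214 (-1.93 ± 0.39 SE, adjusted p = 0.000232). Bcl2l2, the survival factor BCL-W, was higher in macrophages at 32.9 and 17.1 against 12.5, 3.87, 4.90 and 5.49 (1.81 ± 0.56 SE, adjusted p = 0.0102). Quantile normalisation ended the call of Mcl1 (adjusted p = 0.151), and leaving out macrophage library 1 that of Bcl2l2 (adjusted p = 0.155). Mcl1 and Bcl2l11 were thus higher in neutrophils and Bcl2l2 in macrophages. Of 22 p53 targets 5 were higher and 9 lower (10 higher and 8 lower on the library-total scale); Fas, the death receptor, read 13.8 and 27 against 181, 165, 327 and 194 (-3.36 ± 0.42 SE, adjusted p = 7.51e-07), and Gadd45a, a stress sensor, read 74.5 and 52.6 against 469.7, 1168, 461 and 408 (-3.16 ± 0.45 SE, adjusted p = 8.01e-06).

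Whether the contrast between the cell types was particular to the combination was tested as a difference of differences, against cisplatin with control antibody and against control antibody. These comparisons share the 6 combination libraries. Against cisplatin 3 of 9517 genes passed (0.0315%), all with a lower macrophage-minus-neutrophil difference in the combination, and 911 had an unadjusted p under 0.05 (9.57%). Against control 1 of 9566 passed (0.0105%), and 692 had an unadjusted p under 0.05 (7.23%). No member of a gene list passed in either. The simulated test recovered 33.3% and 43.2% of 4-fold changes of this kind, so most changes of this size were missed with these numbers of libraries. The simulated libraries held no other difference between the cell types, so these rates may not hold for the data.

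Elmo1, a partner of DOCK proteins in engulfment and migration (chromosome 13, 20090596 to 20608353), passed in both. In combination macrophages it read 84.2 and 109, against 297, 285, 223 and 289 with cisplatin and 308, 334, 278 and 225 in controls. Neutrophils read 306, 412, 230.3 and 314 in the combination, 264, 244 and 274 with cisplatin and 241, 282, 235 and 228 in controls. Macrophages given anti-CSF-1R alone read 127 and 152, below all control and cisplatin macrophages and below the neutrophils of their own treatment (254, 283, 253 and 292). Combination macrophages lay below every other library listed here, and the difference of differences was -1.74 ± 0.30 SE against cisplatin and -1.89 ± 0.29 SE against control (adjusted p = 0.029 and 0.00484). The first did not pass without either macrophage combination library, neutrophil combination library 1 or 4, neutrophil cisplatin library 2 or macrophage cisplatin library 1 (adjusted p = 0.0563 to 0.217), and the second did not pass without macrophage combination library 1 (adjusted p = 0.338) or on the library-total scale (adjusted p = 0.0581). With only the groups compared in the fit the adjusted p was 0.149 and 0.111.

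Tecr, an enzyme of very long chain fatty acid elongation (chromosome 8, 83571698 to 83607971), read 45.7 and 63.2 in combination macrophages and 186, 113, 184 and 174 in cisplatin macrophages, with 89.4, 77.5, 76.8 and 74.8 and 39.8, 72.8 and 72.7 in the neutrophils of these treatments. Macrophages were below neutrophils in the combination and above them with cisplatin (-1.98 ± 0.37 SE, adjusted p = 0.0378), and against control the value was -1.10 ± 0.36 SE (adjusted p = 0.482). Control macrophages read 114, 117, 122 and 94.3 and anti-CSF-1R macrophages 105 and 136, all above both combination libraries. The third gene, Gm14548, an immunoglobulin-like receptor of the PIR family with close copies, was listed at 1 in both combination macrophage libraries and at 51.1, 27.1 and 23.8 in 3 cisplatin macrophage libraries (-3.79 ± 0.69 SE, adjusted p = 0.0378), with 9.62, 2.43, 3.44 and 1.67 in control macrophages and 1 in both anti-CSF-1R macrophage libraries. Its reads cannot be placed among the copies with certainty, and its value depends on the pseudocount. With only the groups compared in the fit neither Tecr nor Gm14548 passed (adjusted p = 0.15 and 0.141). Neither gene passed without macrophage combination library 1 or 2, neutrophil combination library 1, 3 or 4, neutrophil cisplatin library 2, or macrophage cisplatin library 1, 3 or 4 (adjusted p = 0.0522 to 0.25), and the remaining exclusions kept both calls except Tecr without neutrophil cisplatin library 1 (adjusted p = 0.0798) and Gm14548 without neutrophil cisplatin library 3 (adjusted p = 0.082).

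Alox5 did not pass against cisplatin (-2.99 ± 0.62 SE, adjusted p = 0.0728), although it did after quantile normalisation, with arrayWeights, on the library-total scale, with wide spreads in the restoration and without macrophage cisplatin library 2 (adjusted p = 0.0265, 0.0154, 0.038, 0.0152 and 0.0198). Cisplatin macrophages read 91.6, 45.4, 142 and 161, combination macrophages 9.36 and 12.8 and control macrophages 5.49, 9.73, 17.9 and 12.8. Of these 3 macrophage groups only the cisplatin libraries stood above 20, and anti-CSF-1R macrophages read 7.62 and 26.9. Unlike Elmo1, Alox5 had combination macrophages within the range of the controls. Csf1r read 2452, 2002, 2450 and 2508 in cisplatin macrophages, 2324, 2243, 2438 and 1777 in control macrophages and 1414 and 2143 with anti-CSF-1R alone, against 1126 and 1180 in the combination. Neutrophils read 976, 520 and 1044 with cisplatin and 1217, 1135, 1349 and 1041 in controls. The difference of differences for Csf1r was -1.19 ± 0.39 SE against cisplatin and -0.54 ± 0.37 SE against control, and neither passed (adjusted p = 0.263 and 0.83). Among gene lists, 28 of 30 glycolysis and hypoxia genes had a value above 0 against cisplatin, with a median of 1.01. Over the genes tested between the cell types, 4523 of 8794 were above 0, with a median of 0.02. Against control the glycolysis and hypoxia count was also 28 of 30, with a median of 0.61. Neutrophil markers had a median of 0.98 against cisplatin and 0.16 against control. Cytosolic ribosomal proteins went the other way against cisplatin, with 43 of 50 below 0 and a median of -0.27. These lists were picked from many, and some lists of few genes had larger shifts either way.

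**Figure D5:**
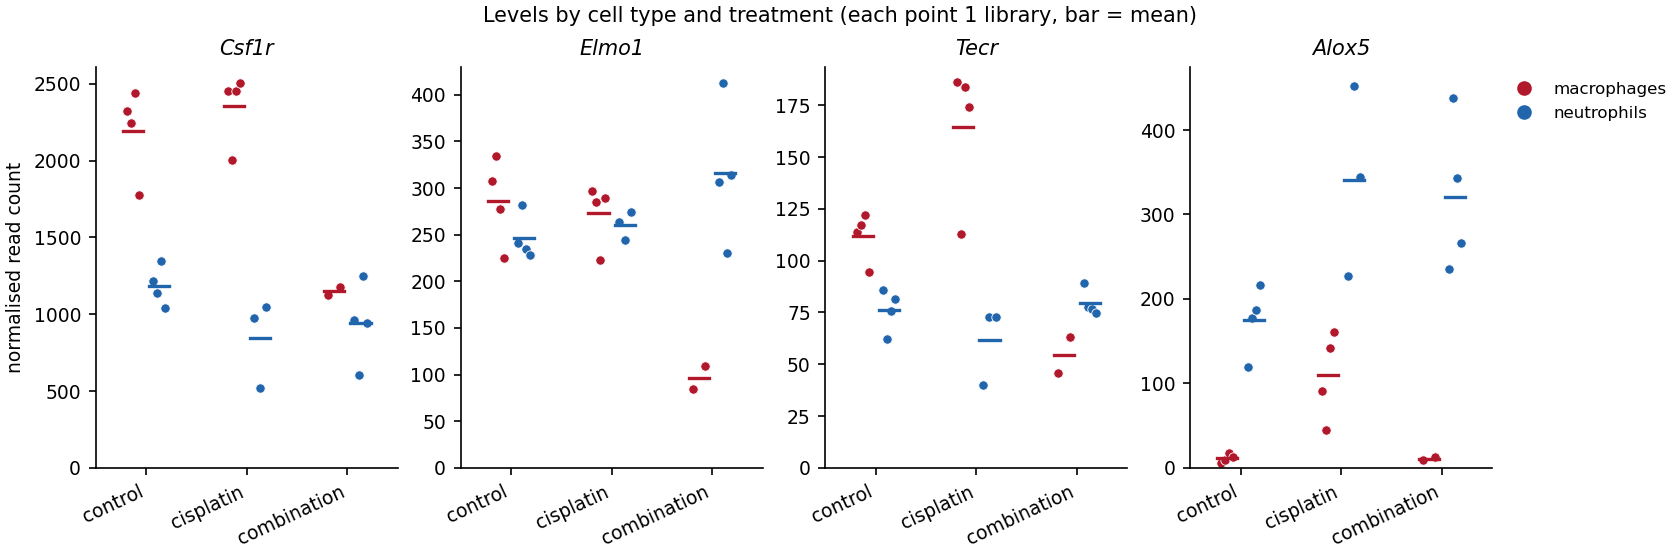
Normalised read counts (linear axes from 0) of Csf1r, Elmo1, Tecr and Alox5 in control, cisplatin and combination macrophages (red) and neutrophils (blue); each point is 1 library and bars are means. Combination macrophages are below all other groups drawn for Elmo1, anti-CSF-1R alone is not drawn, and of the 3 macrophage groups drawn only cisplatin has Alox5 above 20.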

How the data were processed

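RNA of sorted intratumoral neutrophils and macrophages was sequenced in 27 libraries of 8 groups. Libraries were made from 10 ng of RNA with NuGEN kits (Ovation V2, Encore Rapid) on an Illumina instrument, per the labels' protocols. Build mm10 and the tools DESeq2, R 3.3.1, Partek 6.6, TopHat2 2.0.11 and CASAVA 1.8 come from the submitters' processing notes. Their order and roles are not given in the sources used here. Each deposited signal value is a count of reads that the authors scaled by 1 size factor for each library and printed to 6 digits, with 1 as the lowest value.

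Many values under 1000 had lost their decimal point. The form of 245483 of 269892 values (91.0%) allowed a loss, and 67.1% had more than 1 place giving whole reads. A negative binomial model over genes, cell types and groups gave each place a probability. Values under 0.95 were left out (4.61% of all, 4.67% of the combination libraries), and the model expects 0.105% of the kept values to be wrong. The model's spreads were first fixed wide and were then learned from the table, a change made after calls with the wide spreads had been seen; the wide version is among the alternatives. On simulated data 0.111% of kept macrophage and 0.103% of kept neutrophil values were wrong, against 63.3% and 63.9% as printed. The gene levels behind these data came from the restoration itself. The share of wrong places among the deposited values was not tested. Since the groups inform the places, restorations without the groups are given too.

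Genes with a value of at least 10 in at least 2 of the libraries compared were tested two-sided on log2(value + 1) by limma 3.58.1 (R 4.3.3; lmFit, then eBayes with its trend option), all 8 groups in 1 fit, with Benjamini-Hochberg adjusted p-values and a threshold of 0.05. For the cell type contrast the test recovered 60.7% of simulated 4-fold and 16.5% of 2-fold changes, with 0 false among 67 calls. In this simulation all libraries shared the same gene levels, apart from a set of genes changed in combination macrophages only. It held no other difference between the cell types, whereas 48.7% of tested genes were called in the data. Its rates of recovery and of false calls may therefore not hold for the data. For the differences of differences it recovered 33.3% and 9.18% (cisplatin) and 43.2% and 5.1% (control). The design was written without foreseeing the damage, and the test it names for normalised values was used. The labels number no replicates, so library numbers follow the order of the samples.

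The members and gene lists were chosen with earlier results of these data known. Named genes were 6 markers, up to 15 each way with the largest difference and no overlap, the 10 with the highest mean in each group, up to 4 members of each list each way with the smallest p, list members that did not pass, and up to 6 of each difference of differences. Which of them are described was decided with their values in view, and Ms4a1, Cd79a, Krt19, Csn3 and Kit were added outside the rule for their values. Alternatives covered the pseudocount, the filter, scaling, weights, the threshold, limma-voom, the restoration and each library left out. Other software was matplotlib 3.10.9, pandas 2.3.3, scipy 1.17.1, numpy 2.4.6 and Python 3.11.15. Gene positions are from GENCODE vM21 (GRCm38, the assembly of mm10). Some genes that the rule for named genes takes in are not reported here.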

Additional observations from a re-analysis of the deposited data

Results flagged for a closer look

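In groups of 4 libraries, a library was singled out where its gap to the nearest other library, on the log2(value + 1) scale, was beyond the 95% critical value of Dixon for the range of the group, which chance does in about 1 of 20 groups. Of 171 groups examined 15 were singled out (8.77%), and 10 of these (5.85%) were neutrophil combination library 2 as the highest of its group. These were Il1b at 67729, Malat1, a nuclear long noncoding RNA, at 148237, Ets2 at 12061, Il1f9 at 5868, Mmp9 at 2822, Mmp8 at 1607, Gadd45a at 1168, Tlr6 at 983.8, Spi1 at 704.9 and Il18r1, an interleukin-18 receptor chain, at 201.4. That library had the largest summed value, 3500319 against 2110193 to 2251667 in the other neutrophil libraries, and was the highest of its group in 59.5% of the 2031 genes lower in macrophages that kept 4 neutrophil values, in 9.15% of those higher in macrophages and in 35.4% of all tested genes with 4 values. Without it 3692 genes were called in place of 4279. The lowest library of its group was neutrophil combination library 1 for Ldha (496.7), cisplatin macrophage library 3 for Elmo1 (222.8) and cisplatin macrophage library 2 for Tecr (113.5). Gm14548 was highest in neutrophil combination library 4 (1.373) and neutrophil control library 4 (4.628), both near the lowest value of the table.

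The contrast between macrophages and neutrophils differed between treatments, by the test of the difference itself, in 3 genes. Elmo1 gave -1.74 against cisplatin and -1.89 against control, Tecr gave -1.98 against cisplatin and Gm14548 gave -3.79 against cisplatin. The values behind them and the libraries on which each call depends are given with the results.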

How the results depend on the processing

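No paired analysis was possible because the labels carry no replicate numbers. The number of genes differing between the cell types, 4279, fell to 1310 of 2791 tested when only values with 1 possible decimal place were used and to 1040 when limma's treat required a fold over 2, and without 1 library it ran from 2669 (without macrophage library 2) to 4216; every other setting gave 2891 to 5479. With no group known to the restoration 3326 of 8374 genes tested were called. Of 153 named genes tested there, 8 lost their call and 1 gained one. In the main fit 161 of 190 named genes tested were called. Of these, 110 kept the call in every setting except the one with values of 1 possible place, and 159 kept their direction in every setting. After quantile normalisation Laptm5 gave 0.04 and Malat1 gave 0.02 in place of -1.06 and -1.49, and on the library-total scale Cx3cr1 gave 2.15 in place of -0.35; both settings change the scale itself.

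The 3 calls against cisplatin became 1, Elmo1, with a pseudocount of 0.5 or with the cell type alone known to the restoration. With only these groups in the fit 1 gene was called, Plet1, and none of the 3. They became 5 with a pseudocount of 10, 7 at a probability of at least 0.99, 12 with only values of 1 possible place, 13 with no group known to the restoration, 20 on the library-total scale, 22 after quantile normalisation, 42 with wide spreads and 44 with arrayWeights. They became 0 at an adjusted p of 0.01 and with treat. Without 1 library they ran from 0 to 18, with 18 without macrophage cisplatin library 2 and 7 without neutrophil combination library 2, 1 without neutrophil combination library 3 or macrophage cisplatin library 3, and 0 without macrophage combination library 1 or 2, neutrophil combination library 1 or 4, neutrophil cisplatin library 2 or macrophage cisplatin library 1. The 1 call against control became 0 with only these groups in the fit or with treat, was replaced by Ep400 on the library-total scale, and became 2 with a pseudocount of 10, no filter, the most probable places, a probability of at least 0.99 or limma-voom with the authors' size factors. It became 9 with no group known, 10 with wide spreads, 11 after quantile normalisation, 13 with only values of 1 possible place and 26 with arrayWeights. Without 1 library it ran from 0 (macrophage combination library 1) to 13 (macrophage control library 4), with 2 without neutrophil combination library 2, 3 or 4, neutrophil control library 4 or macrophage control library 3. The causes of these changes were not tested. The simulated test missed most 2-fold changes, so genes that did not pass may still differ.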

Other observations

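Further members of the groups above separated the cell types. Both ectoenzymes that turn extracellular ATP into adenosine were lower in macrophages: Entpd1, CD39, read 334 and 341 in macrophages and 1276, 1766, 1050 and 1211 in neutrophils (-1.94 ± 0.33 SE, adjusted p = 3.25e-05), and Nt5e, CD73, read 36.3 and 53.3 against 114, 583, 111 and 157 (-2.05 ± 0.53 SE, adjusted p = 0.00284). Nt5e was highest in neutrophil library 2 and did not pass without macrophage library 1 (adjusted p = 0.0516). Gpr84, a receptor for medium-chain fatty acids, read 10.9 and 5.68 against 353, 384, 1039 and 579, highest in neutrophil library 3 (-5.91 ± 0.62 SE, adjusted p = 6.95e-08). Nlrp12, a regulator of NF-kB in granulocytes, read 1.5 and 2.13 against 104, 157, 131 and 93.3 (-5.42 ± 0.43 SE, adjusted p = 8.13e-10), and Lrg1, a secreted glycoprotein of neutrophil granules and liver, read 14.6 and 17.8 against 769, 498, 795 and 615 (-5.27 ± 0.37 SE, adjusted p = 3.29e-10). In all 5 genes both macrophage libraries lay below every neutrophil library, which was a condition for choosing Gpr84.

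Cd4, which mouse macrophages can express besides T cells, read 73.4 and 64.7 in macrophages and 8.31, 9.68, 4.90 and 13 in neutrophils (2.87 ± 0.46 SE, adjusted p = 2.37e-05), while the T cell gene Cd3d read 1 and 2.13 in macrophages and 42.6, 1 and 22.6 in libraries 2, 3 and 4 of the neutrophils and overlapped (-2.35 ± 0.81 SE, adjusted p = 0.0197). The Cd3d call was lost with only the groups compared in the fit, with the most probable places, with no group known to the restoration, and without macrophage library 1 or 2 (adjusted p = 0.101, 0.0535, 0.0793, 0.139 and 0.0527). Of 31 listed replication and mitosis genes 9 reached the level for a test, and 1 was higher, 1 lower and 7 did not pass (7 higher and 1 lower on the library-total scale). Hmgb2, a chromatin protein of dividing cells, was the lower member, at 73.7 and 94.5 against 343, 666, 325 and 426 (-2.32 ± 0.34 SE, adjusted p = 6.01e-06), and the tubulin Tubb5 the higher one, at 283 and 350.3 against 193, 96.8, 76.8 and 168 (1.33 ± 0.39 SE, adjusted p = 0.00669). Tubb5 did not pass without macrophage library 2 (adjusted p = 0.0788).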
